A study of Homo sapiens with 5 samples.

Results

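The genes described here are 33 protein-coding genes that carry glucose through glycolysis to lactate, limit the entry of pyruvate into the mitochondrion, or make and import glutamine and other amino acids. They were listed by name, with no measured value in the rule, although the list was drawn up with earlier results of these data known. They are 33 of the 20033 protein-coding genes of GENCODE release 44 to which the same rule was applied. CUT&RUN maps a protein on DNA by tethering a nuclease to it with an antibody in permeabilized cells and sequencing the fragments that are released. It was run on OVCAR8, an established human ovarian carcinoma cell line, which was proliferating and untreated. There were 2 HSF1 libraries, 2 MYC libraries and 1 library with a nonspecific IgG antibody, each from 500000 cells crosslinked with 1% formaldehyde for 1 minute. All 5 libraries come from the same line, so nothing here compares cells with and without either factor. Binding lists hold no expression values, so the cell line label was not checked against marker genes.

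MYC, with its partner MAX, binds the E-box CACGTG and neighboring open promoters, and it is known for driving glucose uptake, lactate production and glutamine use in proliferating tumor cells. HSF1 is the main transcription factor of the heat shock response. As a trimer it reads heat shock elements, which are inverted repeats of GAA and TTC, and it has also been linked to metabolism and growth in cancer cells. Glycolysis turns glucose into pyruvate, lactate dehydrogenase turns pyruvate into lactate, and the monocarboxylate transporters carry lactate across the membrane.

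A gene window ran from 5 kb upstream of the gene to its annotated end. Each antibody library was called alone by the authors against the same IgG library. The p-value limit was 1e-04 in the HSF1 lists and 1e-10 in the MYC lists, so the numbers of HSF1 and MYC peaks are not on the same footing. Depth was 8265647 to 10084407 filtered fragments per antibody library, with 9306942 for IgG. The lists held 25623 and 13278 MYC peaks and 6421 and 4459 HSF1 peaks, for replicate 1 and replicate 2. Here a site is a merged interval that holds at least 1 peak of each replicate of a factor, which gave 11756 MYC sites and 2141 HSF1 sites. Fold enrichment is the fragment pileup over the local IgG background as written by the peak caller, and the pileup is the number of fragments stacked at the summit. As a check of the labels, all 4 chaperone genes taken as known HSF1 targets (HSPH1, HSPD1, DNAJB1 and HSP90AA1) had peaks in both HSF1 lists. All 4 genes taken as known MYC targets (NCL, NPM1, ODC1 and CDK4) had peaks in both MYC lists, and 0 of those 4 had a peak in an HSF1 list. The HSF1 targets were not free of MYC, since all 4 had peaks in both MYC lists too. The paper shows CDK4 and ODC1 as examples of genes bound only by MYC in these same data, so their outcome was known beforehand. Of all protein-coding genes, 63.3% and 46.2% had a peak in MYC replicates 1 and 2. For HSF1 replicates 1 and 2 the shares were 16.5% and 12.3%, so the check of the labels is a weak one.

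MYC peaks lay at most of these genes and HSF1 peaks at a minority of them. In MYC replicate 1, 27 of the 33 genes had a peak, against 63.3% of all protein-coding genes, and in MYC replicate 2 it was 25, against 46.2%. HSF1 peaks lay at 12 genes in replicate 1 and 11 in replicate 2, where the shares of all genes were 16.5% and 12.3%. A MYC site, present in both lists, was found at 24 genes, where 44.6% of all genes have one, and an HSF1 site at 8, where 6.41% have one. Overlapping HSF1 and MYC sites were found at 6 genes (3.65% of all genes). By single lists, peaks of HSF1 replicate 1 overlapped those of MYC replicate 1 at 10 genes (13.2%) and those of MYC replicate 2 at 8 (8.76%), and peaks of HSF1 replicate 2 did so at 9 (9.05%) and 8 (6.96%). The 4 lists together held 154 peaks in these windows. The windows had a median length of 38541 bp, close to the 32471 bp of all genes.

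**Figure D1:**
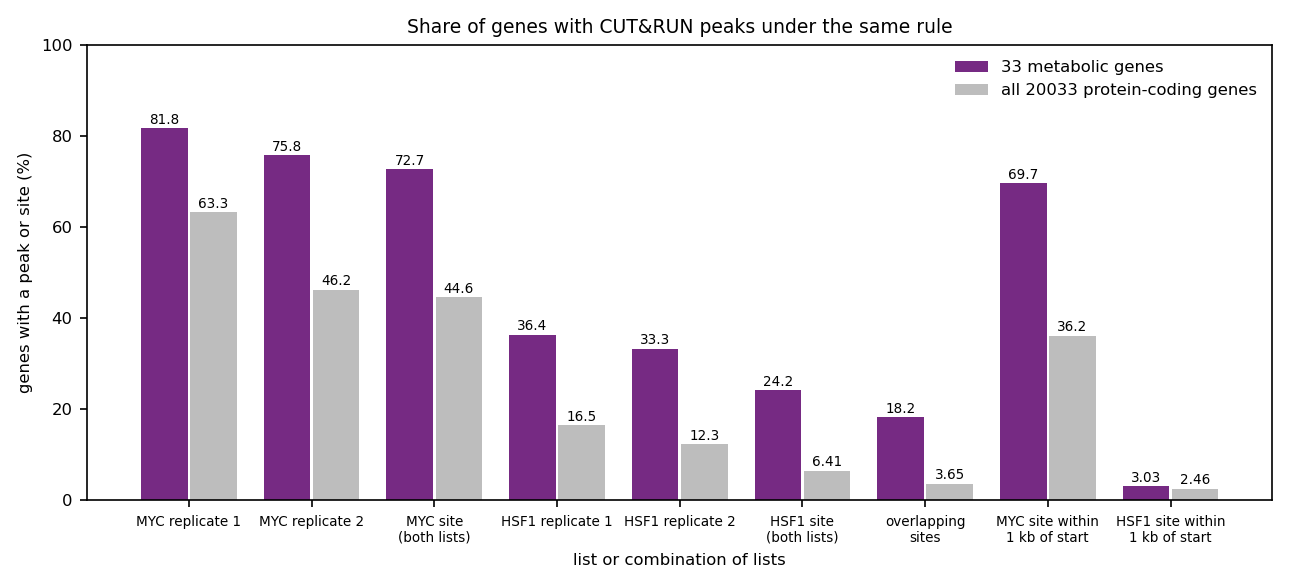
Percentage of the 33 metabolic genes (purple bars) and of all 20033 protein-coding genes (grey bars) with a peak in each list, with a site of each factor, with overlapping sites, and with a site within 1 kb of the start of the canonical transcript. The purple bars are the taller ones throughout, but for HSF1 sites near the start the 2 bars are 3.03% and 2.46%.

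The mean number of occupied genes was 26.0 ± 1.41 over the MYC lists and 11.5 ± 0.707 over the HSF1 lists (SD, n = 2). The ranges of the 2 factors did not overlap. Neither did the shares over all genes, at 63.3% and 46.2% for MYC and 16.5% and 12.3% for HSF1, so this was not particular to these genes. The exact two-sided permutation test over lists gave p = 0.333, which is the smallest p this test can give for 2 lists against 2, so it could not pass the threshold. The HSF1 count depended on the threshold and the window. With HSF1 peaks held to the MYC threshold, 7 genes had a peak in replicate 1 (5.44% of all genes) and 4 in replicate 2 (4.52%), and 3 had a site (2.67%). Within 1 kb of the canonical start, 3 genes had an HSF1 peak in each list (6.56% and 5.42% of all genes), and LDHB alone had an HSF1 site (2.46%). In that narrow window MYC peaks remained at 26 genes in replicate 1 (50.9%) and 24 in replicate 2 (37.7%), and MYC sites at 23 (36.2%).

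**Figure D2:**
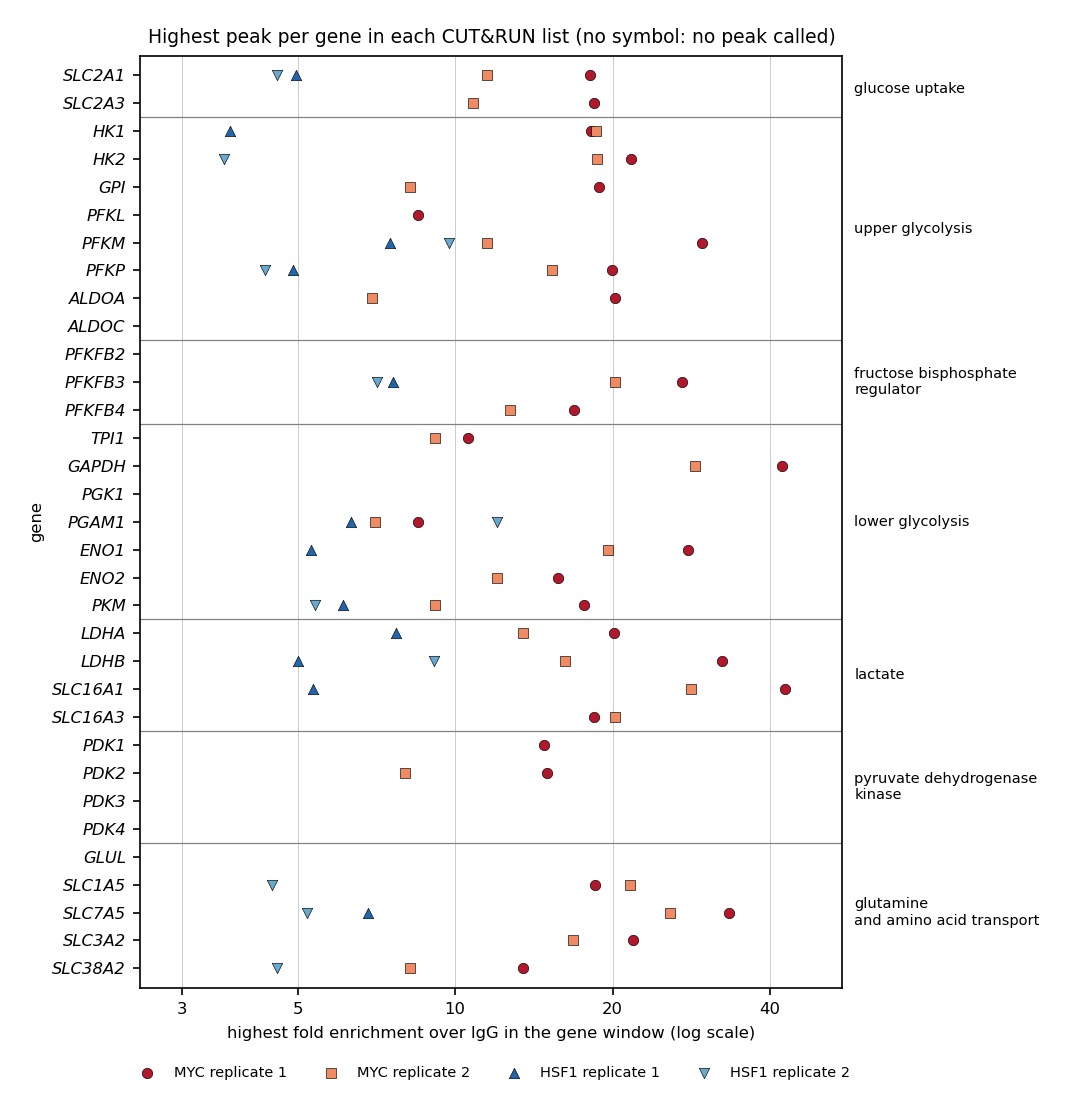
Highest fold enrichment over IgG in the window of each of the 33 genes (log scale), with 1 symbol per list (red circles and orange squares for MYC, blue triangles for HSF1), ordered by step of the pathway. A missing symbol means that no peak was called. The MYC symbols reach 42.7 at SLC16A1, and the highest HSF1 symbol is 12.0 at PGAM1.

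No peak was called in any list at 6 genes, PFKFB2, ALDOC, PGK1, PDK3, PDK4 and GLUL, where 34.7% of all genes have none. PGK1, which makes the first ATP of the lower pathway, was without a peak although its annotated window, 223557 bp, is the longest of the group. PFKL and PDK1 had a peak in MYC replicate 1 only, and TPI1 had a peak in each MYC list that did not overlap the other. At this depth and threshold a missing peak is one that was not called, which is not the same as absent binding.

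The sequences under the peaks are shown for the sites on which the motif counts turn. An E-box, searched as CACGTG (its own reverse complement), lay within 100 bp of the strongest summit in 6 of the 41 MYC sites in these windows, and in 8.31% of all MYC sites. Over the full length of the site it was found in 21 of 41, against 30.4% of all MYC sites. These 41 sites were longer than most, with a median width of 1109 bp against 774 bp. The 6 sites belong to HK2, ALDOA, LDHA, SLC16A3 (2 sites) and SLC7A5. Printed below in GRCh38, on the strand of the gene and with the E-boxes in capitals, are the 250 bases before the LDHA start (chr11:18394313-18394562, plus strand, the part of the RefSeq promoter entry before the start), where the summit of MYC replicate 1 lay 20 bp from the nearer of a pair of E-boxes. They are followed by intron 1 of HK2 (chr2:74834936-74835066, plus strand), with a pair of E-boxes 14 and 59 bp from the replicate 1 summit. Next are intron 1 of SLC16A3 (chr17:82230282-82230341, plus strand), 34 bp from the replicate 2 summit, and intron 1 of SLC7A5 (chr16:87860905-87860964, minus strand), 62 bp from the replicate 1 summit. In each case this is the stronger summit. The summits of the 2 replicates were 292 (LDHA), 106 (HK2), 142 (SLC16A3) and 5 bp (SLC7A5) apart. Outside SLC7A5 the distances therefore hold for the named replicate only.
LDHA: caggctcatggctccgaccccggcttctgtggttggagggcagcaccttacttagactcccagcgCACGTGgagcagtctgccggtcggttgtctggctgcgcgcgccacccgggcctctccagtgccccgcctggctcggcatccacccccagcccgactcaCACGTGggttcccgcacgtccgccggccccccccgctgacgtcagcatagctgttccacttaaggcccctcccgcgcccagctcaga
HK2: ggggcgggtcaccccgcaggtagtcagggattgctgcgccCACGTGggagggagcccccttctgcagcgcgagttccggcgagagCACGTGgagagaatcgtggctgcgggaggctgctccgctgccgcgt
SLC16A3: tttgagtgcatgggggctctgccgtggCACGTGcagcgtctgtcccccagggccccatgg
SLC7A5: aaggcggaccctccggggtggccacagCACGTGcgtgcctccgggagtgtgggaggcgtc

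In the RefSeq promoter entries (250 bases before and 50 from the start on), 30 of the 33 genes had an entry. CACGTG stood in an entry of 9 of them: HK2, PFKFB3, ALDOA, ALDOC, GAPDH, LDHA, PDK2, SLC1A5 and SLC7A5. Over all 35116 entries the share was 7.26%, and over the 15345 protein-coding symbols with an entry 10.9% had it in at least 1. A MYC site was present at 8 of these 9 genes, where 24 of all 33 and 44.6% of all protein-coding genes have one. A link between the promoter letters and the MYC site was not tested. ALDOC, which carries the E-box, had no peak in any list. A match describes the letters and does not show which protein was there.

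The heat shock element was searched as GAANNTTCNNGAA and TTCNNGAANNTTC, which are reverse complements of each other. It lay within 100 bp of the strongest summit in 1 of the 9 HSF1 sites in these windows, against 10.1% of all HSF1 sites, and anywhere in the site in 2 of 9, against 25.2%. The match within 100 bp is in intron 1 of SLC2A1 (chr1:42947300-42947392, minus strand), 62 bp from the summit of replicate 1. The other is upstream of PFKM (chr12:48106727-48106819, plus strand), 158 bp from the stronger summit. Both stretches follow, with the element in capitals and on the strand of the gene.
SLC2A1: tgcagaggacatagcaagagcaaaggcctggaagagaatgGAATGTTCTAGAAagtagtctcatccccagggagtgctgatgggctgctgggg
PFKM: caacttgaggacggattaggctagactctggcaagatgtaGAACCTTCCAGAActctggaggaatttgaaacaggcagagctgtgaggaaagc

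Another set of stretches of GRCh38 shows the places where HSF1 and MYC summits lay closest together. In intron 1 of PKM (chr15:72228774-72228926, minus strand) the stronger summits of the 2 factors, both from replicate 1, were 2 bp apart, and the capitals mark the bases from one summit to the other. In replicate 2 the MYC and HSF1 summits of PKM were 168 bp apart. In intron 2 of PFKP (chr10:3095582-3095782, plus strand) and far upstream of PFKFB3 (chr10:6157546-6157746, plus strand) the stronger summits were 82 and 81 bp apart. Those of PFKFB3 come from different replicate numbers. These 2 stretches are the 201 bases around the HSF1 summit, and the capitals mark TGANTCA, the site that AP-1 factors read, which was looked for after the sequences were seen and is its own reverse complement. It lay within 100 bp of the summit in 2 of the 9 HSF1 sites, those of PFKP and PFKFB3, against 16.8% of all HSF1 sites. Within 100 bp of the MYC summit it was found in 1 of the 41 MYC sites, at ENO1, against 8.61% of all MYC sites.
PKM: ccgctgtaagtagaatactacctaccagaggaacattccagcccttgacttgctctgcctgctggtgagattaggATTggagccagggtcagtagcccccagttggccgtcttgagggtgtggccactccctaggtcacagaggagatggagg
PFKP: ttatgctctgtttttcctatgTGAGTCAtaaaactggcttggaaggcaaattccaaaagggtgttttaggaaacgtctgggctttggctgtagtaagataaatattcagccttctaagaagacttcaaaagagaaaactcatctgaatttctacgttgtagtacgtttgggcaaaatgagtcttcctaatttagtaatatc
PFKFB3: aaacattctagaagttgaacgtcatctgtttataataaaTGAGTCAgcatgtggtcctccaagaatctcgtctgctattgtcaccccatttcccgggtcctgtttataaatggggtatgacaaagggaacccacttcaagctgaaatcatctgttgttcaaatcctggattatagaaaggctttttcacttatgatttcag

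Both glucose transporter genes had MYC sites and one of them an HSF1 site. SLC2A1, the widely expressed transporter that brings glucose into proliferating cells, had a MYC site over its start with fold enrichments of 18.1 in replicate 1 and 11.5 in replicate 2. Its HSF1 site lay 11584 bp into the gene, in intron 1, and did not overlap a MYC site. The HSF1 fold enrichments were 4.96 and 4.57, on pileups of 12 and 10 fragments. This is the site with the heat shock element printed above. SLC2A3, a transporter with high affinity for glucose, had MYC sites 22753 and 34736 bp upstream of its canonical start, and the nearest annotated start to both belonged to another gene. MYC replicate 1 also had a peak 42 bp upstream of the canonical start (11.6) and one 19 bp from another annotated SLC2A3 start (15.4). MYC replicate 2 had none at either place. SLC2A3 had no HSF1 peak.

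In upper glycolysis, where hexokinase traps glucose and phosphofructokinase commits it to the pathway, 6 of 8 genes had a MYC site and 2 an HSF1 site. HK2, the hexokinase that many tumors gain, had its MYC site over the start and intron 1, with fold enrichments of 21.7 and 18.7, and its E-boxes are the pair printed above. Both HSF1 sites of this step lay in phosphofructokinase genes. PFKM, named for muscle, had an HSF1 site 12749 bp upstream of the canonical start with fold enrichments of 7.50 and 9.74, on pileups of 11 and 14. An overlapping MYC site there had 13.2 and 11.5, with its midpoint 10 bp from another annotated PFKM start, so it was upstream of the canonical transcript but not far from the gene's own starts. At the canonical start, PFKM had a second MYC site that differed widely between replicates, 29.7 and 8.00.

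PFKP, the platelet-type phosphofructokinase, had 4 MYC sites, all with their strongest summits in introns. The one in intron 1, near the start, had fold enrichments of 19.9 and 14.7. The strongest by mean, 28216 bp into the gene in intron 2, had 19.9 and 15.3 on pileups of 78 and 73. The means, 17.3 ± 3.69 and 17.6 ± 3.28 (SD, n = 2), lie within the spread between replicates. HSF1 fold enrichments at the intron 2 site were 4.89 and 4.32, on pileups of 20 and 16. All 4 summits of that site lay within intron 2 and in both factors the 2 replicates put the summit within 8 bp of each other. The third isoform, PFKL, had no site of either factor.

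Of the genes that set the level of the activator of phosphofructokinase, PFKFB3, which mainly makes the activator, had 4 MYC sites. The strongest, over the canonical start, had fold enrichments of 27.1 and 20.2. Further MYC sites lay 57904 and 39014 bp upstream, 100 and 3 bp from other annotated PFKFB3 starts. Between them, 45286 bp upstream of the canonical start and 6158 bp from the nearest annotated start, HSF1 and MYC sites overlapped. HSF1 had 4.82 and 7.08 there, on pileups of 22 and 26, and MYC had 18.0 and 11.2. These HSF1 pileups were the highest of the 9 sites, but the fold enrichments were not, since the ratio also depends on the local IgG background. PFKFB4 had a MYC site alone, and PFKFB2 had no peak.

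**Figure D3:**
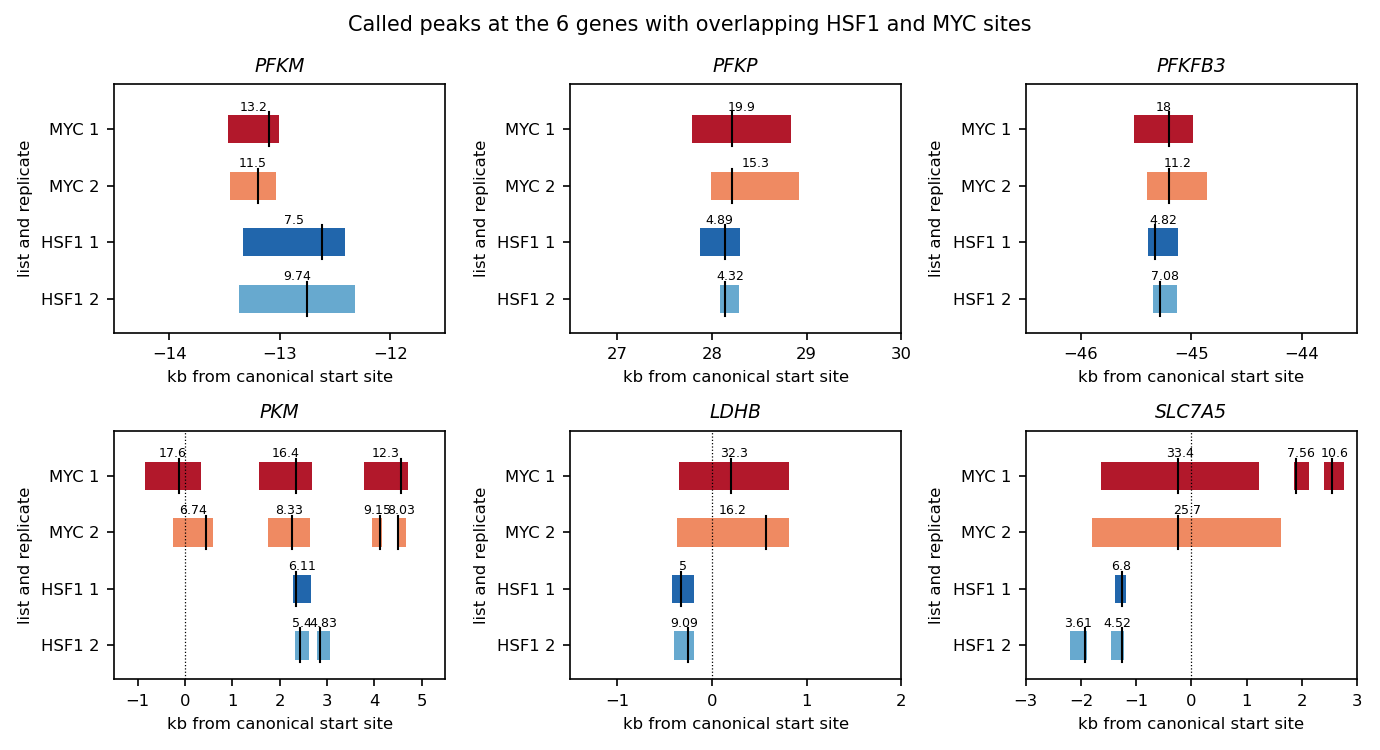
Called peaks (bars from peak start to peak end, black ticks at the summits, fold enrichment above each bar) of the 2 MYC and 2 HSF1 lists at the 6 genes with overlapping sites, in kb from the canonical start in the direction of transcription. The dotted line is the start. At PFKP and PFKFB3 the summits of both factors are 69 to 121 bp apart within a replicate number and at PKM 2 bp in replicate 1 and 168 bp in replicate 2, while at PFKM, LDHB and SLC7A5 the HSF1 summits lie to one side of the MYC summits.

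In lower glycolysis, 5 of 7 genes had a MYC site and 2 an HSF1 site. GAPDH, which makes the reducing equivalent that lactate production later consumes, had fold enrichments of 42.2 and 28.7 at a MYC site 305 bp upstream of its start, with pileups of 112 and 90. Those peaks ranked above 99.5% and 98.6% of their lists, and GAPDH had no HSF1 peak. ENO1, the ubiquitous enolase, had 27.9 and 19.6 over its start, in a site that holds 5 E-boxes, none within 100 bp of the strongest summit. PGAM1 encodes the phosphoglycerate mutase that is shared by most tissues. Its MYC site was the weakest among the strongest sites of the 24 genes, with 7.61 and 7.01, and the HSF1 site, 1726 bp into intron 1, had the highest mean HSF1 fold enrichment of the 9 sites, with 6.33 and 12.0 on pileups of 13 and 24. MYC replicate 1 had a peak of 8.49 that overlapped the HSF1 site in intron 1, and MYC replicate 2 had none there. PGAM1 also starts close to RRP12, and the midpoint of its MYC site was nearest to the start of RRP12. The MYC summits themselves were nearest to a PGAM1 start, at 23 and 19 bp.

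PKM, whose splice forms set the last step of glycolysis, had 3 MYC sites, over the start and in intron 1. The middle one, 2341 bp into the gene, had MYC fold enrichments of 16.4 and 8.33, and the HSF1 site on it had 6.11 and 5.40, on pileups of 15 and 12. Here the MYC summit and the HSF1 summit of replicate 1 were the pair 2 bp apart in the printed sequence. The 3 MYC sites were close in mean fold enrichment, at 12.2, 12.4 and 10.7, and those means lie within the spread between replicates (SD 7.66, 5.70 and 2.23, n = 2).

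All 4 lactate genes had a MYC site and 1 had an HSF1 site. SLC16A1, a monocarboxylate transporter for lactate and pyruvate, had the highest MYC value of replicate 1 in the group, 42.7, and 28.2 in replicate 2, on pileups of 134 and 103. This site was 3665 bp wide, and its midpoint was nearest to the start of the divergent transcript SLC16A1-AS1. Its strongest summits in replicates 1 and 2 were nearest to SLC16A1 starts, at 44 and 18 bp. SLC16A3, the exporter that highly glycolytic cells use, had 18.4 and 20.2 in intron 1, at the E-box printed above. Replicate 2 was the higher there, as it was in 5 of the 41 MYC sites. LDHA, the form that favors lactate production, was chosen for description after its values were seen: its promoter site had 16.1 and 13.5, and a second MYC site in intron 1 had 20.1 and 13.4. HSF1 replicate 1 had a peak on that intron 1 site with 7.70, and replicate 2 had none.

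LDHB, the form that favors lactate use, had MYC fold enrichments of 32.3 and 16.2 over its start. Its HSF1 site lay 257 bp upstream of the start and was the only HSF1 site of the 9 within 1 kb of a canonical start. HSF1 fold enrichments were 5.00 and 9.09 there, on pileups of 7 and 13. The stronger HSF1 summit, of replicate 2, was 457 bp from the stronger MYC summit, of replicate 1. Within a replicate number the summits were 530 bp (replicate 1) and 833 bp (replicate 2) apart. Both HSF1 summits lay inside the MYC site, near its upstream end.

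The pyruvate dehydrogenase kinases, which hold pyruvate back from the mitochondrion, were the step with the fewest peaks. PDK2 had a MYC site, with a mean fold enrichment of 11.5 ± 4.96 (SD, n = 2). PDK1 had 14.8 in MYC replicate 1 alone, and PDK3 and PDK4 had no peak. No kinase had an HSF1 peak in either list, at thresholds under which 16.5% and 12.3% of all genes have one.

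In amino acid uptake, 4 of 5 genes had a MYC site, and GLUL, which makes glutamine, had no peak. SLC7A5 and SLC3A2 encode the light and heavy chains of a transporter that imports large neutral amino acids. SLC7A5 had MYC fold enrichments of 33.4 and 25.7 over its start, ranking above 98.1% and 97.7% of the lists, and a second MYC site 8635 bp into intron 1 with 23.2 and 11.7. It was also the one gene with a pair of HSF1 sites. The first, 1253 bp upstream of the start, had 6.80 and 4.52 on pileups of 17 and 12. It lay wholly inside the wide promoter MYC site, with the stronger summits of the 2 factors 1007 bp apart. The second, 15852 bp into intron 1, had 3.73 and 5.21, on pileups of 5 and 7, which are the lowest of the 9 HSF1 sites. SLC3A2 had 21.9 and 16.8 over its start and no HSF1 peak. SLC1A5, the main glutamine importer of proliferating cells, had 18.5 and 21.6 in exon 1, also higher in replicate 2.

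The 10 genes with the highest mean MYC fold enrichment at a site were SLC16A1, GAPDH, SLC7A5, LDHB, PFKFB3, ENO1, HK2, SLC1A5, SLC16A3 and SLC3A2, from 35.4 down to 19.3. Neighbors in this order differ by less than the larger of their SDs between replicates, as at the top, where SLC16A1 had 35.4 ± 10.3 and GAPDH 35.4 ± 9.55 (SD, n = 2). Over the 24 genes with a MYC site, the median of the strongest site was 18.0, against 14.7 over all 8932 genes with one, and 16 of the 24 lay above the latter. In single lists the medians were 19.4 against 17.1 in replicate 1 and 14.4 against 12.0 in replicate 2. The genes with a MYC site that are not described above (HK1, GPI, ALDOA, PFKFB4, ENO2 and SLC38A2) had means from 10.8 to 18.4 at their strongest site. These medians are given as a description of the group.

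**Figure D4:**
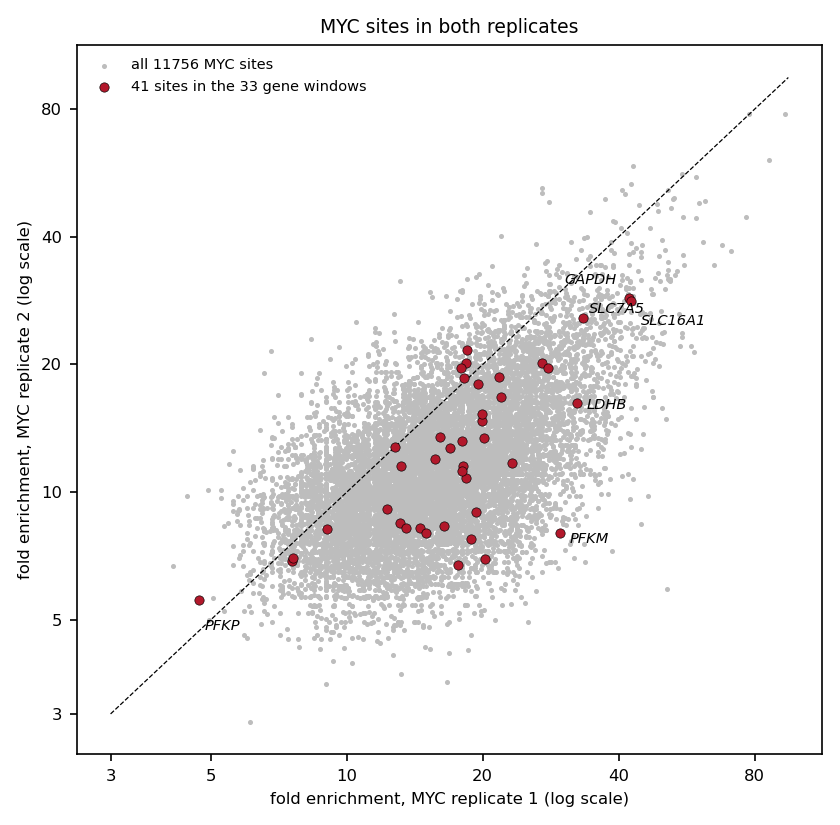
Fold enrichment in MYC replicate 2 against MYC replicate 1 (both log scale) for all 11756 MYC sites (grey) and the 41 sites in the windows of the 33 genes (red), with the line of equal values dashed. Most red points lie below the line, 35 of 41, as do 82.1% of all sites, and GAPDH and SLC16A1 are the highest red points.

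Replicate 2 gave the lower MYC value in 35 of the 41 sites, with a median ratio of 0.739. For all MYC sites the ratio was 0.719, so this difference between the libraries was not particular to metabolic genes. For HSF1, 4 of 9 sites were lower in replicate 2. HSF1 pileups in these sites ran from 5 to 26 fragments and MYC pileups from 14 to 134, so the HSF1 values rest on few fragments. The median HSF1 fold enrichment of the 9 sites was 5.00 in replicate 1 and 5.40 in replicate 2, below the 6.22 and 6.49 of all HSF1 sites, and far from the highest HSF1 values in the lists, 112 and 90.4.

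MYC and HSF1 differed in where they sat relative to the canonical starts of these genes. Of the 24 genes with a MYC site, 18 had both summits within 1 kb of the canonical start (34.6% of all genes have such a site), and 22 within 1 kb of any annotated start (38.4%). The midpoint of 34 of the 41 MYC sites was nearest to a start of the gene itself. For HSF1, 8 of 9 sites had both summits farther than 1 kb from the canonical start, and 5 of 9 lay in introns. No share over all HSF1 sites stands beside these counts, so they describe these sites only. Only LDHB had an HSF1 site nearer to the canonical start. Other annotated starts of the gene were closer to some sites. Both HSF1 summits lay within 1 kb of an annotated start at PFKM (361 and 227 bp) and PGAM1 (442 and 383 bp). The same held at PKM (175 and 90 bp) and LDHB (201 and 128 bp), again without a share over all HSF1 sites. Of all genes, 2.46% have an HSF1 site within 1 kb of the canonical start and 6.41% have one in the window. All 9 sites were nevertheless nearest to an annotated start of their own gene, at a median of 1318 bp. Over all HSF1 sites, which include those outside gene windows, the median distance to the nearest start was 6504 bp. HSF1 sites were also narrower and had less G and C than MYC sites. The median width was 289 bp and the GC 49.8%, against 1109 bp and 65.2%. Over all sites the medians were 546 bp and 49.3% for HSF1 and 774 bp and 63.2% for MYC. The direction of these differences was thus not particular to these genes.

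**Figure D5:**
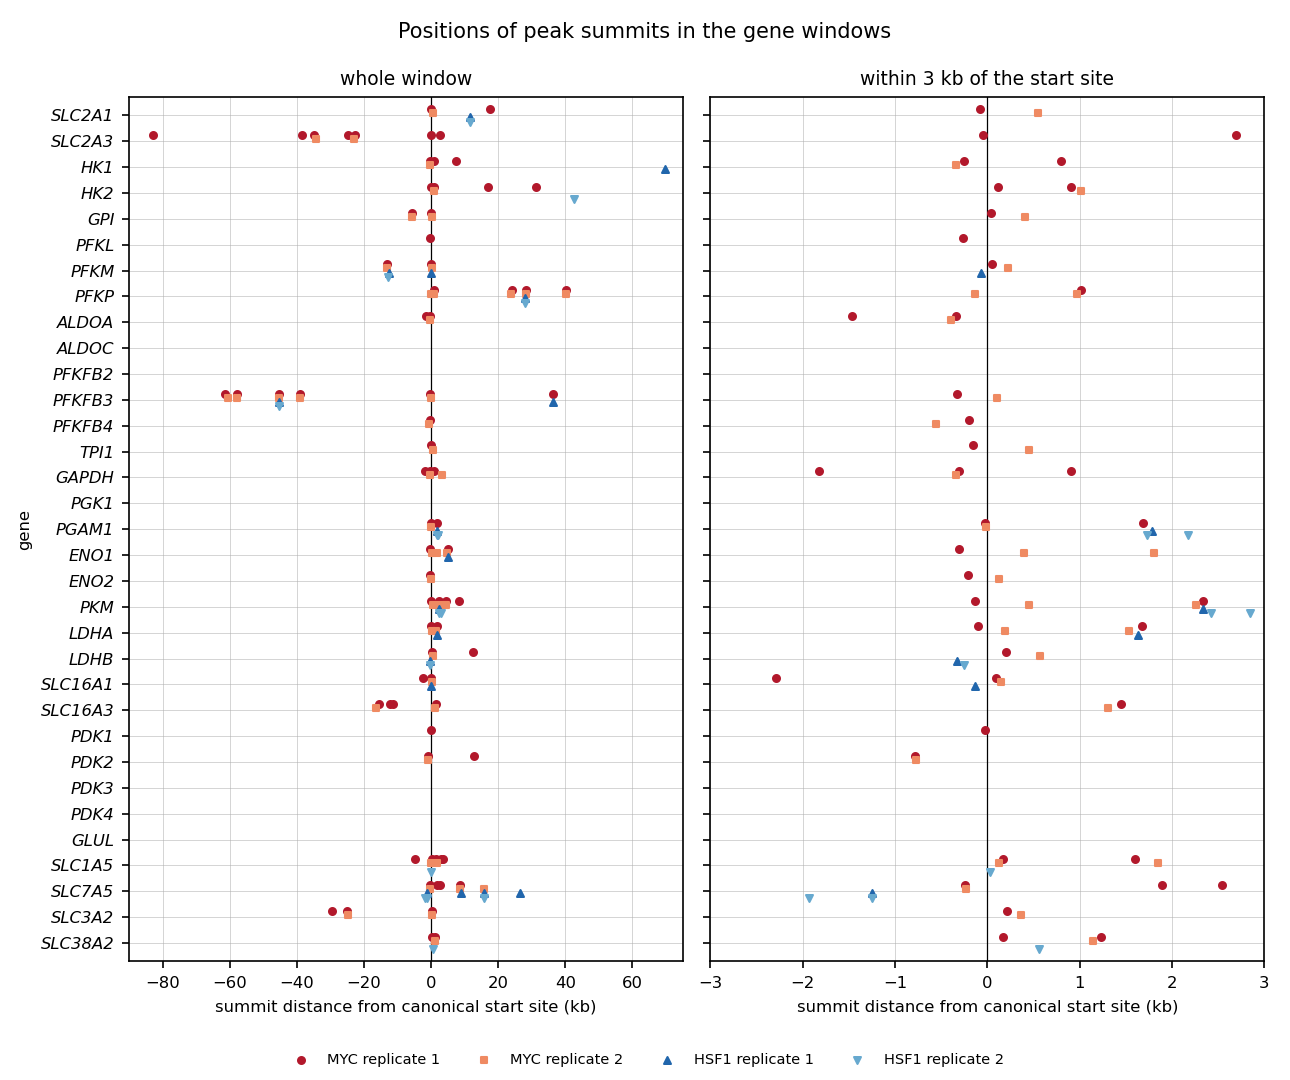
Distance of every peak summit from the canonical start (kb, positive in the direction of transcription) for the 33 genes, over the whole window on the left and within 3 kb on the right, with 1 symbol per peak and list. MYC symbols line up at the start in most rows, whereas HSF1 symbols in both lists are mostly away from it, as in SLC2A1, PFKM, PFKP, PFKFB3 and SLC7A5.

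All 8 genes with an HSF1 site also had a MYC site (5.20% of all genes have both), while 16 genes had a MYC site without an HSF1 site. Over all protein-coding genes, 81.1% of the 1285 genes with an HSF1 site had a MYC site in the window. At the level of single sites, 6 of 9 HSF1 sites overlapped a MYC site, against 42.8% of all HSF1 sites, and 6 of 41 MYC sites overlapped an HSF1 site, against 7.73% of all MYC sites. The shares over all sites include sites outside gene windows. In 3 of the 6 genes the stronger summits were within 200 bp of each other (2 bp in PKM, 81 in PFKFB3 and 82 in PFKP), and in the other 3 they were 348 (PFKM), 457 (LDHB) and 1007 bp (SLC7A5) apart. At PFKFB3, PFKM and LDHB the stronger HSF1 summit is of replicate 2 and the stronger MYC summit of replicate 1. Within replicates 1 and 2 the gaps were 121 and 79 bp at PFKFB3, 482 and 444 at PFKM, and 530 and 833 at LDHB. All 4 lists were called against the same IgG library, so the lists are not independent in their background.

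HSF1 peaks in a single list added 7 genes: HK1, ENO1, LDHA and SLC16A1 in replicate 1, and HK2, SLC1A5 and SLC38A2 in replicate 2. At 5 of these (ENO1, LDHA, SLC16A1, SLC1A5 and SLC38A2) the HSF1 peak lay on a MYC site. No share over all single-list HSF1 peaks stands beside this count. Of all HSF1 sites found in both lists, 42.8% overlap a MYC site, and 24 of the 33 genes have a MYC site. The HSF1 peaks at the 7 genes had fold enrichments from 3.61 to 7.70 and pileups from 5 to 15. These ranges overlap those of the HSF1 sites found in both lists. Counting any HSF1 peak of either list would give 15 genes, where 21.1% of all genes have one.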

How the data were processed

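CUT&RUN peak lists of 2 HSF1 and 2 MYC libraries were analysed, each called against 1 IgG library. In the file headers the control is called IgG replicate 2, whereas only 1 IgG sample, without a number, appears in the labels. The authors aligned reads to GRCh38/hg38 with Bowtie2 and called peaks per library with MACS2 2.2.9.1, which scaled the larger of each pair of libraries to the smaller. The deposited columns used were the pileup, which is the signal of stacked fragments at the peak summit, the −log10 p-value, and the fold enrichment, which is the ratio of that pileup to the local background. Without read counts, no count model was run.

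Peaks on chromosomes 1 to 22, X and Y were merged within a factor wherever they shared 1 bp, and a site needed a peak of each replicate. Gene windows, canonical transcripts and the 20033 protein-coding genes came from GENCODE 44, and promoter sequences from RefSeq. Motifs were searched on both strands within 100 bp of the stronger summit (201 bases) and in the whole site. Python 3.11.15, pandas 2.3.3, numpy 2.4.6, scipy 1.17.1, pysam 0.24.0 and matplotlib 3.10.9 were used, and the assignment and motif steps were tested on simulated data. Values are given for every gene with an HSF1 site and for the 10 with the highest mean MYC fold enrichment, and others that are described were chosen after their values were seen. The genes and lists were chosen with earlier results of these data known. No source says that replicates came from separate cultures, so their spread may be technical. The values of 1 gene of a comparison list are not reported here. Alternatives covered replicates, thresholds, windows, overlap and motif definitions.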

Additional observations from a re-analysis of the deposited data

How the results depend on the processing

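Of 50 alternatives for the site counts, motifs and median, 35 left the value within 1.5 times the main count, or within the spread between replicates for the median. Taking the union of the replicate lists gave 15 genes with an HSF1 site (21.1% of all genes) and 12 with overlapping sites (16.8%). HSF1 peaks at a −log10 p of at least 10 gave 3 (2.67%) and 2 (1.36%). A window of 1 kb either side of the canonical start gave 1 (2.46%) and 1 (2.07%). Requiring the HSF1 and MYC summits within 200 bp gave 3 genes with overlap (2.63%). The median MYC fold enrichment over genes was 13.5 without MYC replicate 1 and 18.5 without MYC replicate 2 (all genes 12.0 and 15.2), and as pileup scaled to depth it was 4.34 (all genes 3.71), which is another scale. Of the 24 genes with a MYC site, 3 had an E-box near the summit of the strongest one. The share was 8.49% over the strongest MYC sites of all genes and 8.31% over all MYC sites. They numbered 14 with the whole site searched (30.4% of all MYC sites) or 9 with a pair of related hexamers counted too (26.0% of all MYC sites). No share over strongest sites stands beside the counts of 14 and 9. Genes with a heat shock element near an HSF1 summit numbered 1 (10.1% of all HSF1 sites). Without HSF1 replicate 1 the number was 0 (5.97%) and without replicate 2 it was 2 (6.51%). It was 2 with the whole site (25.2%) and 3 with up to 1 mismatch (25.4%). The count of genes with a MYC site stayed between 20 and 27, and the share of all genes between 32.2% and 64.1%. The MYC lists had peaks at 14.5 more of the genes than the HSF1 lists, and 13.5 to 15.5 with any 1 list left out. Over all genes the MYC lists also had more, with shares of 63.3% and 46.2% against 16.5% and 12.3% for HSF1. With the replicate number as a block, a comparison chosen after seeing the data, the difference was again 14.5 (15 and 14 by number), and the exact two-sided sign-flip test gave p = 0.5, the smallest it can give for 2 pairs. No source says that the numbers pair the libraries. Setting HSF1 against MYC lists of the same replicate number gave 6 genes with overlap in both numbers (4.20% of all genes). The HSF1 calls rest on few fragments, and the cause of these shifts was not tested.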

Other observations

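The same rule was applied to 2 further lists of the pathway. Of 26 other genes of pyruvate, glucose and glutamine metabolism, 19 had a MYC site, 18 of them at the canonical start, and 1 had an HSF1 site. Over all protein-coding genes these shares are 44.6%, 34.6% and 6.41%. The highest mean MYC fold enrichments there were at SLC38A1, a glutamine transporter (28.2 in replicate 1 and 25.7 in replicate 2), and PDHX, a subunit of the pyruvate dehydrogenase complex (27.6 and 26.2). The HSF1 site was in the window of PDP2, a phosphatase of that complex, with 4.33 and 4.57, and it was nearest to the start of the neighboring gene NAE1.

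Of 17 isoforms of the glycolytic enzymes and transporters that other tissues use, 9 had a MYC site, 2 of them at the canonical start, and 0 had an HSF1 site. In the windows of GAPDHS, PFKFB1 and SLC16A8 both summits of the MYC site were nearest to starts of neighboring genes. An HSF1 peak lay at 1 of the 17 in replicate 1, in HKDC1, and at 0 in replicate 2. The shares over all genes are those given above, and these counts are descriptions, and no test was run between the lists.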
